A study of Mus musculus with 2 samples.

Results

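Transcripts of 52 genes of the DNA damage response and DNA repair were examined in 2 cell populations sorted from the mouse cortex at embryonic day 15.5. They were taken by symbol, by a rule that uses no measured value, as genes of homologous recombination, the Fanconi pathway, end joining, mismatch and excision repair, and the checkpoint. All 52 symbols stood in both deposited tables, among 20373 rows in each. The neurons were cells that carried both a green reporter driven by Nestin regulatory sequences and a red reporter driven by those of doublecortin (Dcx), and the neural progenitor cells (NPCs) were cells with the green colour. All embryos came from heterozygous Nestin-GFP mice bred with homozygous DCX-mRFP mice and carried both reporters, and how many were pooled for a library is not given in the sources used here. Total RNA was sequenced, with 1 library per population, so every comparison is between 1 neuron library and 1 NPC library, without a replicate check and without a p-value. The study as a whole relates the transcriptomes of progenitors and their daughter neurons to polymerase pausing and histone methylation, assays that were not used here.

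Cells repair DNA by routes that differ in when they can act. Homologous recombination copies the intact sister chromatid and therefore works after replication, in S and G2 phase, and the Fanconi pathway clears crosslinks that block replication forks. End joining, nucleotide excision repair and base excision repair need no sister chromatid and also serve cells that no longer divide. In the embryonic cortex the progenitors of the ventricular zone cycle fast, their daughter neurons leave the cycle, and mouse mutants that lack end joining factors lose newly born neurons.

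Levels are given in CPM, deposited values divided by the mean sum of the 2 tables and multiplied by 1000000. The neuron library held 23312054 recovered reads and the NPC library 26346226, so that 1 CPM stood for 22.8 and 27.0 reads. Ratios of single genes are neuron over NPC without an added value, and their exact Clopper-Pearson intervals cover counting error only: no molecular identifiers were recorded in the tables, and reads may be copies of 1 molecule. Members were counted as 2-fold apart on the scale log2((neuron CPM + 1)/(NPC CPM + 1)), which understates differences of low genes, and this log2 ratio is the one quoted for medians. Nes, the progenitor intermediate filament gene, was at 189.5 CPM in the neuron library and 409 CPM in the NPC library, and Dcx was at 3294 CPM in the neuron library and 2522 CPM in the NPC library. Genes of radial glia, the stem cells of the cortex, were 2-fold lower in neurons for 9 of 9 markers, which summed to 479 CPM in the neuron library and 1424 CPM in the NPC library. Markers of intermediate progenitors summed to 607 CPM in the neuron library and 1769 CPM in the NPC library (5 of 5 2-fold lower). Markers of young neurons summed to 5821 CPM in the neuron library and 3494 CPM in the NPC library. Of these 9, 4 were 2-fold higher in neurons and 0 were 2-fold lower. Rbfox3 was the 1 marker slightly lower, at 99.6 CPM in the neuron library and 107 CPM in the NPC library. Other cell types also differed between the libraries. Pericyte markers summed to 13.3 CPM in the neuron library and 205 CPM in the NPC library (6 of 8 2-fold lower in neurons), endothelial markers to 3.34 CPM in the neuron library and 21.8 CPM in the NPC library (7 of 8 lower), and oligodendrocyte lineage markers to 1.85 CPM in the neuron library and 45.7 CPM in the NPC library (4 of 4 tested lower). Microglia markers summed to 138 CPM in the neuron library and 31.7 CPM in the NPC library (9 of 10 2-fold higher in neurons), and Cajal-Retzius markers to 459 CPM in the neuron library and 99.2 CPM in the NPC library (5 of 5 higher). Interneuron markers summed to 217 CPM in the neuron library and 303 CPM in the NPC library, with 0 of 7 2-fold apart. No marker of these lists was at 0 reads in a library, and the part of these cell types in the results on repair genes was not tested. In RNA from sorted populations, fewer expressing cells and less RNA per cell cannot be told apart.

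Repair genes were lower in the neuron library in a graded way. The members at least 2-fold lower were 5 of 14 recombination genes, 1 of 8 Fanconi genes, 0 of 5 end joining genes, 3 of 17 mismatch and excision repair genes and 3 of 8 checkpoint genes. All 52 members had at least 1 CPM in both libraries. On the log2 scale 12 of 52 members (23.1%) were at least 2-fold lower in neurons, against 6.73% of all 12693 genes with at least 1 CPM in a library, and 0 were at least 2-fold higher, against 3.85% of all genes. Lower by any amount were 45 members (86.5%), against 50.7% of all genes. With 1.5-fold as the limit 19 members were lower, against 13.1% of all genes, and 15 had a counting interval wholly beyond 1.5-fold, against 10.2% of all genes. The member median was −0.37, against −0.0049 over all genes. With the deposited scaling, the counting interval left out equality for 36 members lower and 4 members higher in neurons. That count was not made over all genes, so it does not set the members apart. It was also not repeated under other scalings, and Trp53bp1, among the 4, turned sign under scaling by total reads. The 12 members at least 2-fold lower were Clspn, Exo1, Chek2, Chek1, Xrcc2, Brca1, Fancd2, Neil3, Rad54l, Bard1, Ung and Rad51ap1, in order of the log2 ratio. Just outside the limit stood Fanci at −0.93, and just inside it Rad51ap1 at −1.07.

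**Figure D1:**
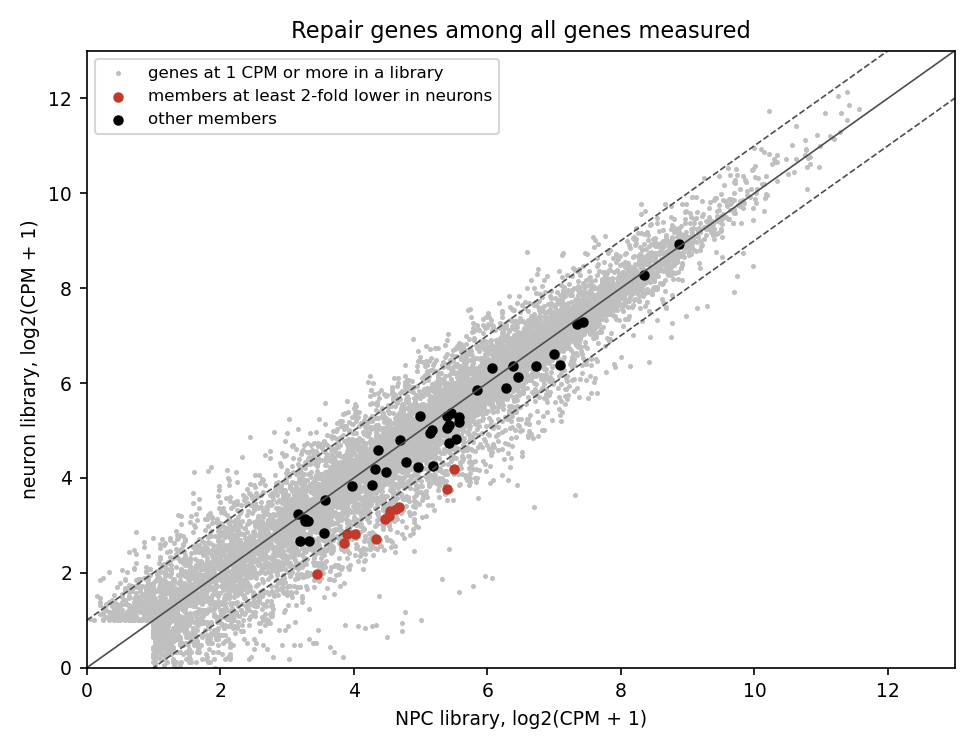
Levels in the neuron library (vertical axis) against the NPC library (horizontal axis), both as log2(CPM + 1), with 1 point per gene at 1 CPM or more in a library. The solid line marks equality and the dashed lines 2-fold. The 12 red members lie below the lower dashed line, and 0 members lie above the upper one.

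Of 14 recombination genes, 5 were at least 2-fold lower in neurons, against 6.73% of all genes, with a median log2 ratio of −0.67. The neuron value was the lower one for 14 of 14, against 50.7% of all genes, but for Rad51c and Rad52 the counting interval included equality. Brca1, whose product promotes resection of breaks, was at 17.2 CPM in the neuron library and 44.2 CPM in the NPC library, 2.57-fold lower in neurons (95% counting interval 2.29 to 2.89). Bard1, its obligate partner in a ubiquitin ligase, was at 5.22 CPM in the neuron library and 13.5 CPM in the NPC library, 2.58-fold lower in neurons (95% counting interval 2.09 to 3.20). These partners stood at nearly the same ratio, 0.389 and 0.388, although their levels differed. Fancd2 and Neil3, from other role groups, stood close by at 0.385 and 0.387, so this ratio is not particular to the pair. Xrcc2, a recombination mediator, was at 8.21 CPM in the neuron library and 22.1 CPM in the NPC library, 2.69-fold lower in neurons (95% counting interval 2.28 to 3.18). Rad54l, a motor protein that remodels DNA during recombination, was at 8.82 CPM in the neuron library and 22.4 CPM in the NPC library, 2.54-fold lower in neurons (95% counting interval 2.16 to 2.99). Rad51ap1, which stimulates the forming of joint molecules, was at 6.06 CPM in the neuron library and 13.9 CPM in the NPC library.

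Other recombination genes were lower by less than 2-fold. Brca2, a central recombination mediator and tumour suppressor, was at 27.3 CPM in the neuron library and 45.4 CPM in the NPC library, and Palb2, the bridge between Brca1 and Brca2, at 5.40 CPM in the neuron library and 9.01 CPM in the NPC library. Their ratios were again alike, at 0.602 and 0.599, but Fanca and Topbp1, from other role groups, were also near, at 0.592 and 0.607. Blm, a helicase that dissolves joined recombination intermediates, was at 25.6 CPM in the neuron library and 42.2 CPM in the NPC library. Break sensing differed less. Nbn and Mre11a, subunits of the complex that finds broken ends and starts their resection, were at 13.4 and 18.4 CPM and at 19.1 and 26.5 CPM in neurons and NPCs, and Rad50, the ATPase subunit, was at 29.6 and 34.4 CPM. The counting intervals of the ratios of Rad50 and of either partner overlapped. The recombination mediator gene Xrcc3 was at 16.5 CPM in neurons and 21.4 CPM in NPCs. For Rad51c, a partner of Xrcc3, at 7.55 CPM in neurons and 8.93 CPM in NPCs, and for Rad52, a strand annealing protein, at 13.3 CPM in neurons and 14.7 CPM in NPCs, no difference was detectable beyond counting error.

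**Figure D2:**
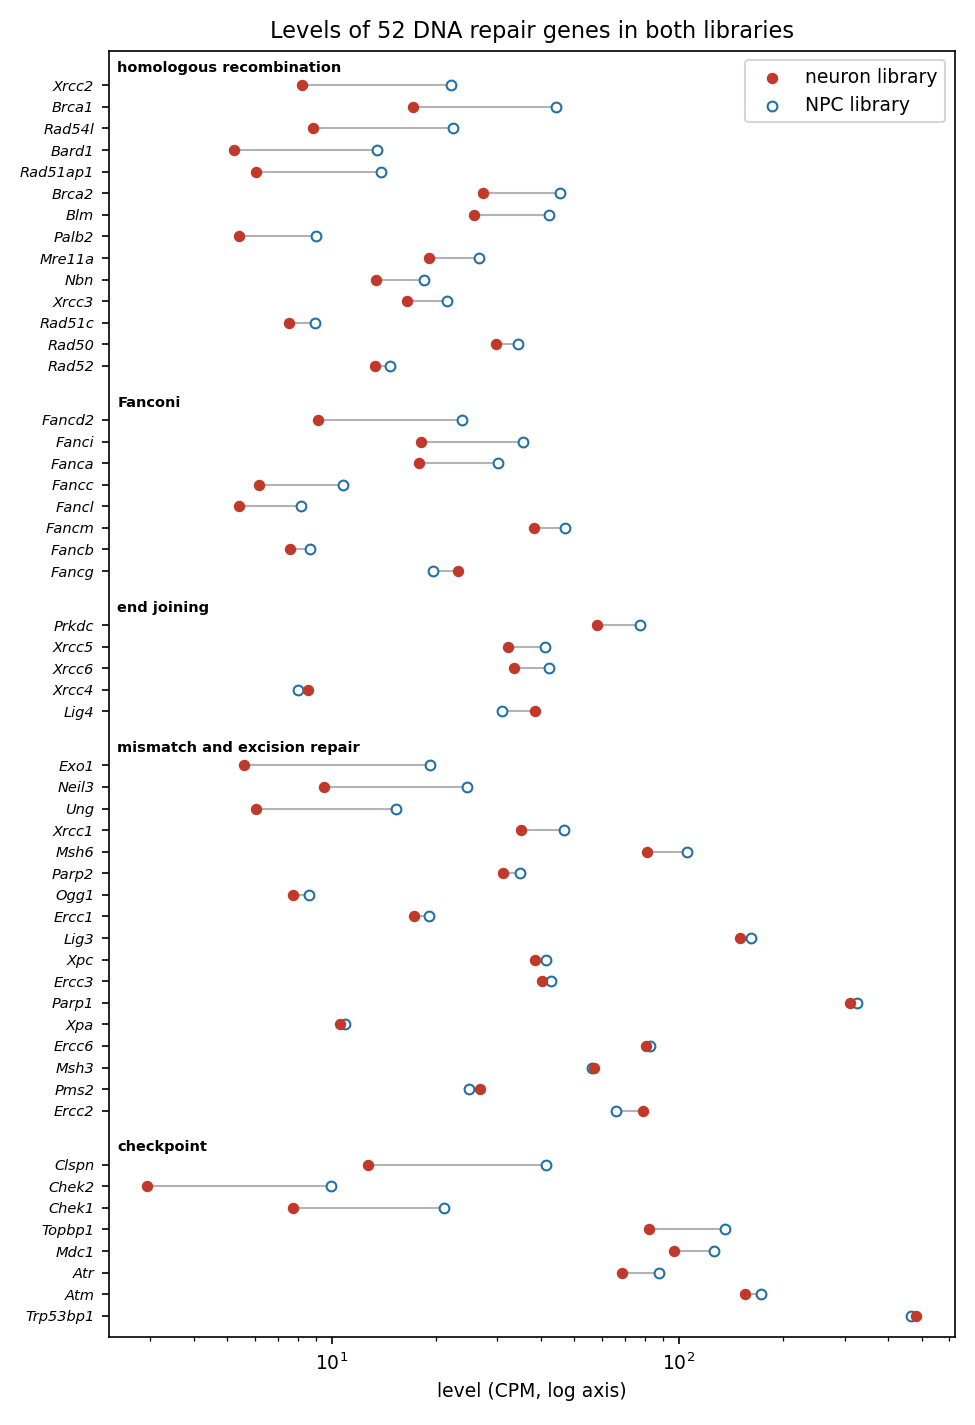
Level of each of the 52 genes in the neuron library (filled red) and the NPC library (open blue), in CPM on a log axis, grouped by role and ordered by log2 ratio within a role. Long lines mark the members that differ most, from Xrcc2 in recombination to Clspn, Chek2 and Chek1 in the checkpoint, while the points of the excision repair genes from Parp2 downward lie close together.

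Fanconi genes differed to unequal extents. Lower in neurons were 7 of 8 members, and 1 passed 2-fold, against 50.7% and 6.73% of all genes. The median was −0.61. With 1 gene past 2-fold, the group is not set apart from all genes at that limit. Fancd2, which is ubiquitinated at stalled forks and clamps onto DNA there, was at 9.13 CPM in the neuron library and 23.7 CPM in the NPC library, 2.60-fold lower in neurons (95% counting interval 2.22 to 3.05). Fanci, its partner in the clamp, was at 18.1 CPM in the neuron library and 35.4 CPM in the NPC library, 1.96-fold lower in neurons (95% counting interval 1.74 to 2.20). The intervals of these partners' ratios did not overlap. Fanca and Fancc, of the core complex that ubiquitinates the pair, were 1.69-fold lower (1.498 to 1.91) and 1.74-fold lower (1.42 to 2.14), at 17.8 and 30.1 CPM and at 6.19 and 10.8 CPM in neurons and NPCs. Fancl, the ligase subunit of the core, was at 5.40 CPM in neurons and 8.16 CPM in NPCs. Fancm, the motor protein that anchors the core on DNA, was at 38.2 CPM in neurons and 46.8 CPM in NPCs, and Fancb, another core subunit, at 7.59 CPM in neurons and 8.64 CPM in NPCs, with an interval that included equality. Fancg, also of the core, was at 23.0 CPM in neurons and 19.6 CPM in NPCs, 1.18-fold higher in neurons (95% counting interval 1.04 to 1.33). Exons of Fanci and Fancl overlap exons of genes on the opposite strand (Polg and Vrk2) over 13.4% and 17.0% of their length in the GENCODE annotation, and whether reads were counted by strand is not given in the sources used here.

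End joining genes had no member 2-fold apart in either direction and a median of −0.32. With 6.73% of all genes 2-fold lower and 3.85% 2-fold higher in neurons, 0 of 5 does not set the group apart. Lig4, the ligase that seals the ends, was at 38.5 CPM in the neuron library and 30.9 CPM in the NPC library, 1.25-fold higher in neurons (95% counting interval 1.13 to 1.37), the largest excess in neurons among the 52 genes. Xrcc4, the scaffold that stabilises this ligase, was at 8.52 CPM in neurons and 8.01 CPM in NPCs, with no detectable difference. The sensing side of the pathway lay on the other side of equality. Prkdc, the catalytic subunit of the DNA-dependent kinase, was at 58.2 CPM in neurons and 77.1 CPM in NPCs, 1.32-fold lower (1.24 to 1.42). Xrcc5 and Xrcc6 encode the subunits of the Ku ring that threads onto broken ends, and were at 32.2 and 41.0 CPM and at 33.5 and 42.1 CPM in neurons and NPCs, 1.27-fold lower (1.16 to 1.40) and 1.26-fold lower (1.14 to 1.38). The ring's subunits thus had overlapping intervals, as did Lig4 and Xrcc4.

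Mismatch and excision repair held the members nearest to equality and 3 that stood far from it. Of 17 members 14 were lower in neurons, 3 at least 2-fold, against 50.7% and 6.73% of all genes, and the median was −0.11. Exo1, the exonuclease that degrades the mismatched strand and also resects breaks, was at 5.57 CPM in the neuron library and 19.2 CPM in the NPC library, 3.44-fold lower in neurons (95% counting interval 2.83 to 4.22). Neil3, a glycosylase that acts on oxidised bases and on crosslinks at replication forks, was at 9.48 CPM in the neuron library and 24.5 CPM in the NPC library, 2.58-fold lower in neurons (95% counting interval 2.21 to 3.03). Ung, which removes uracil from DNA, was at 6.06 CPM in the neuron library and 15.3 CPM in the NPC library, 2.52-fold lower in neurons (95% counting interval 2.07 to 3.08). Ogg1, the glycosylase for oxidised guanine, was at 7.73 CPM in neurons and 8.60 CPM in NPCs, with no detectable difference, so the glycosylases among the members did not share a ratio.

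Among mismatch recognition genes, Msh6, which reads single mismatches, was at 81.0 CPM in neurons and 105 CPM in NPCs, 1.30-fold lower (1.23 to 1.38). Msh3, which reads small loops, was at 56.9 CPM in neurons and 56.3 CPM in NPCs, and the endonuclease subunit gene Pms2 at 26.8 CPM in neurons and 24.8 CPM in NPCs, both with intervals that included equality. Most members of nucleotide excision repair had no detectable difference. Xpc, which finds distorting lesions, was at 38.5 CPM in neurons and 41.3 CPM in NPCs, and Xpa, which checks them, at 10.6 CPM in neurons and 10.9 CPM in NPCs. Ercc3, a helicase subunit of TFIIH, was at 40.2 CPM in neurons and 42.7 CPM in NPCs, and Ercc1, a subunit of an incision nuclease, at 17.3 CPM in neurons and 19.0 CPM in NPCs. Ercc6, which couples repair to stalled polymerase, was at 80.6 CPM in neurons and 82.6 CPM in NPCs. The intervals of these 5 genes included equality. Ercc2, the other helicase of TFIIH, was at 78.6 CPM in neurons and 66.1 CPM in NPCs, 1.19-fold higher (1.11 to 1.27), but 34.8% of its exon length overlaps an antisense gene on the opposite strand. In single-strand break repair, Parp1, the sensor that builds poly(ADP-ribose), was at 311 CPM in neurons and 325 CPM in NPCs, and Parp2, its relative, at 31.0 CPM in neurons and 34.9 CPM in NPCs. Xrcc1, the scaffold of this route, was at 35.1 CPM in neurons and 46.5 CPM in NPCs, 1.32-fold lower (1.21 to 1.45), while its ligase partner Lig3 was at 149.5 CPM in neurons and 161 CPM in NPCs. The intervals of the ratios of Lig3 and Xrcc1 did not overlap, and 27.9% of the exon length of Lig3 overlaps Rffl on the opposite strand.

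**Figure D3:**
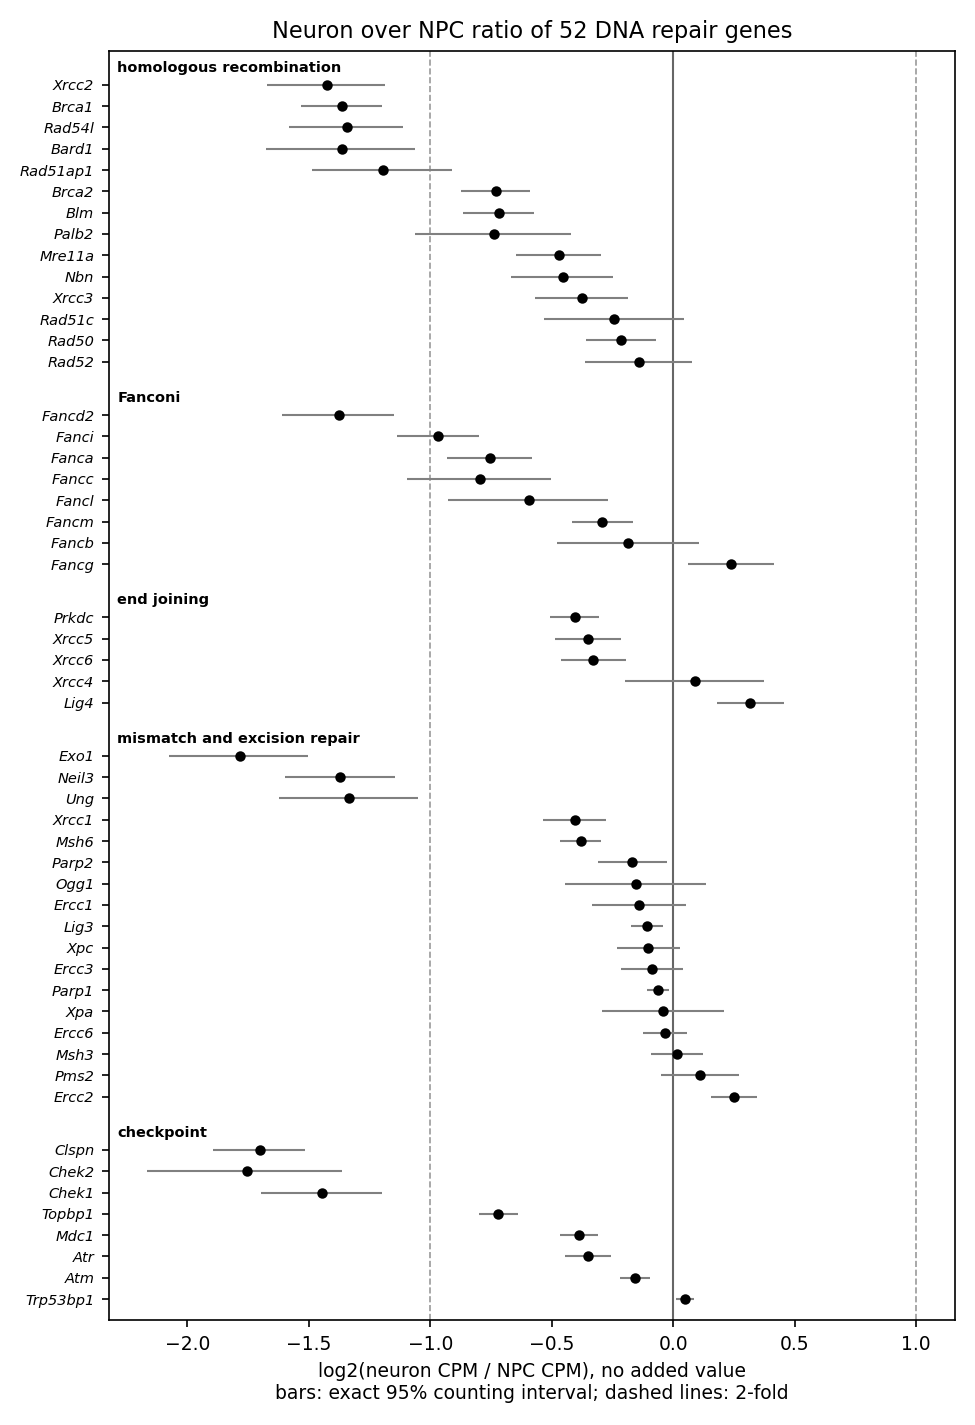
Ratio of the neuron to the NPC level for each member, as log2 without an added value, with exact 95% counting intervals, grouped by role. The solid line marks equality and the dashed lines 2-fold. Exo1, Clspn and Chek2 lie farthest to the left, and Lig4, Ercc2 and Fancg farthest to the right.

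Checkpoint genes differed between the apical kinases and the kinases these activate. Of 8 members 7 were lower in neurons, 3 at least 2-fold, against 50.7% and 6.73% of all genes, with a median of −0.55. The apical kinase genes differed little. Atm, which answers breaks, was at 155 CPM in the neuron library and 172 CPM in the NPC library, 1.12-fold lower (1.07 to 1.17), and Atr, which answers single-stranded DNA at stalled forks, was at 68.5 CPM in the neuron library and 87.3 CPM in the NPC library, 1.28-fold lower (1.196 to 1.36). The kinases they activate were far lower in neurons. Chek2, the target of Atm, was at 2.94 CPM in the neuron library and 9.94 CPM in the NPC library, from 67 and 268 reads, 3.38-fold lower in neurons (95% counting interval 2.58 to 4.48). Chek1, the target of Atr, was at 7.73 CPM in the neuron library and 21.1 CPM in the NPC library, 2.73-fold lower in neurons (95% counting interval 2.30 to 3.25). In each of these kinase pairs the intervals of the ratios did not overlap.

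Clspn, the adaptor through which Atr reaches Chek1 at the fork, had the most negative log2 ratio of all 52 genes (−1.63), at 12.7 CPM in the neuron library and 41.3 CPM in the NPC library, 3.26-fold lower in neurons (95% counting interval 2.86 to 3.72). Topbp1, which switches Atr on, was at 82.2 CPM in the neuron library and 135 CPM in the NPC library, 1.65-fold lower in neurons (95% counting interval 1.56 to 1.74), and its interval did not overlap that of Clspn. The annotation names 2 pseudogenes of Topbp1, with which it could share reads. The break mediators differed less. Mdc1, which reads the phosphorylated histone mark at breaks, was at 96.7 CPM in neurons and 126 CPM in NPCs, 1.31-fold lower (1.24 to 1.38). Trp53bp1, which protects broken ends from resection, was at 483 CPM in neurons and 467 CPM in NPCs, 1.03-fold higher (1.01 to 1.06), although 22.1% of its exon length overlaps Tubgcp4 on the opposite strand and its sign turned when libraries were scaled by total reads.

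Per kilobase of exon the members spanned a wide range of levels. Parp1 was the most abundant, with 80.2 and 83.9 CPM per kilobase in neurons and NPCs, followed by Trp53bp1 with 50.2 and 48.5. Bard1 had 0.923 and 2.38 and Exo1 0.715 and 2.46 CPM per kilobase. In NPCs the least abundant was Rad51c, with 1.75 and 2.08 CPM per kilobase in neurons and NPCs. None of the 15 members most abundant per kilobase in NPCs was at least 2-fold lower in neurons. The first such member in that order was Neil3, at rank 16. With 6.73% of all genes at least 2-fold lower in neurons, few genes would pass in a group of 15. The lack of such members among these 15 thus does not set them apart from all genes. Parp1 and Trp53bp1 together made up 33.2% of the summed CPM of the members in neurons and 27.6% in NPCs, so a few genes weigh heavily in such sums. The 52 genes summed to 2394 CPM in the neuron library and 2864 CPM in the NPC library.

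Outside the 52 genes, 10 further genes of the same pathways were at least 2-fold lower in neurons. The list held 103 genes, of which 100 were matched to the tables and 98 passed the 1 CPM limit. Thus 10 of 98 (10.2%) were 2-fold lower, against 6.73% of all genes, and 0 at least 2-fold higher, against 3.85%. The share 2-fold lower lies near that of all genes, so the count of 10 does not by itself set the list apart. Lower by any amount were 75 (76.5%), against 50.7% of all genes, and the median was −0.15, against −0.0049. Recombination genes made up 7 of the 10, which is 31.8% of the 22 recombination genes tested in this list. The recombination factor genes Rad54b and Fignl1 were at 10.4 and 23.7 CPM and at 12.1 and 31.0 CPM in neurons and NPCs. Mms22l, which promotes recombination at stalled forks, was at 19.2 CPM in neurons and 52.1 CPM in NPCs, the helicase gene Recql4 at 5.79 CPM in neurons and 13.01 CPM in NPCs, and the mediator gene Rad51b (listed as Rad51l1) at 0.527 CPM in neurons and 2.60 CPM in NPCs. Rmi2, a partner of Blm listed under a Riken symbol, was at 1.14 CPM in neurons and 5.82 CPM in NPCs, 5.10-fold lower (3.35 to 8.05). Brip1, the helicase partner of Brca1, was the 1 such Fanconi gene, at 2.99 CPM in neurons and 10.6 CPM in NPCs, 3.54-fold lower (2.71 to 4.68). Next in that group came Usp1, which removes ubiquitin from Fancd2, at 69.2 CPM in neurons and 113 CPM in NPCs, and Ube2t, which helps to attach it, at 3.69 CPM in neurons and 6.30 CPM in NPCs. Hus1, a subunit of the checkpoint clamp, and Wee1, which restrains entry into mitosis, were 2.57-fold lower (2.23 to 2.97) and 2.20-fold lower (1.95 to 2.48), at 11.5 and 29.5 CPM and at 17.0 and 37.4 CPM in neurons and NPCs. Timeless, which holds replication forks together, was at 29.3 CPM in neurons and 52.1 CPM in NPCs.

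Of 32 tested mismatch and excision repair genes in that list, 0 were 2-fold apart in either direction, with a median of −0.07. The same count was 0 of 9 for end joining and 0 of 9 for translesion synthesis, with medians of −0.14 and −0.07. At the all-gene share of 6.73% lower in neurons, few genes would pass in groups of these sizes, so counts of 0 do not set them apart. The end joining genes with the largest differences were Polq, the polymerase of microhomology-mediated joining, at 16.7 CPM in neurons and 30.6 CPM in NPCs, Rif1, an effector of Trp53bp1, at 114 CPM in neurons and 162 CPM in NPCs, and the ligase cofactor gene Nhej1 at 2.72 CPM in neurons and 3.52 CPM in NPCs. Among base excision repair genes, Mutyh, which removes adenine opposite oxidised guanine, was at 3.03 CPM in neurons and 5.23 CPM in NPCs, and Mbd4, a thymine glycosylase, at 14.5 CPM in neurons and 20.8 CPM in NPCs. For translesion synthesis the largest differences were those of the polymerase gene Polk (5.97 CPM in neurons and 9.16 CPM in NPCs), the ubiquitin ligase gene Rad18 (10.1 CPM in neurons and 13.7 CPM in NPCs) and the polymerase gene Rev1 (65.5 CPM in neurons and 56.5 CPM in NPCs).

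Cell cycle genes were set beside the repair genes. Of 40 genes of replication origins and forks, 40 were lower in neurons and 13 at least 2-fold, against 50.7% and 6.73% of all genes. Their median was −0.81. Of 25 mitosis genes, 24 were at least 2-fold lower, against 6.73% of all genes, with a median of −1.46. The replication list stood at 54.3% of its NPC sum in neurons and the mitosis list at 34.1%. Of the 52 repair genes, 13 were at or below the replication median and 3, Clspn, Exo1 and Chek2, at or below the mitosis median. Of all genes, 7.52% lay below Fanci, the last of these 13, and 10.25% below Fanca, the next member. The share of all genes below Chek2 was 2.43%, and that below Chek1, the next member, 3.31%. The 12 members that were 2-fold lower kept from 29.0% to 43.7% of their NPC level in the neuron library, a range whose top is set by the 2-fold limit. The other 40 members stood at 88.5% of their NPC sum. The 9 radial glia markers kept 33.7% of their sum, and with the 12 picked by their ratio, nothing follows from their nearness to it. Young neuron markers summed to 3494 CPM in the NPC library. The part of progenitors among the sorted neurons, and of neuronal RNA in the NPC library, in the levels of the repair genes was not tested.

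**Figure D4:**
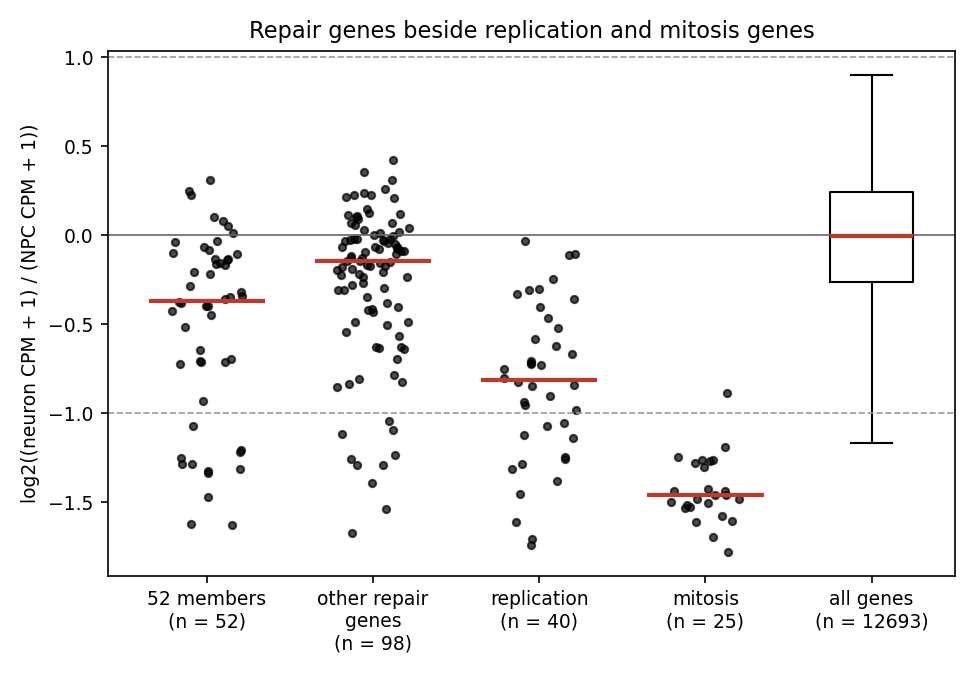
Log2 ratio of neuron to NPC with 1 CPM added to both, for the 52 repair genes, 98 other repair genes, 40 replication genes and 25 mitosis genes, 1 point per gene with red lines at the medians. The box shows the quartiles and median of all 12693 genes, with whiskers at the 5th and 95th percentiles. The 52 repair genes reach from slightly above equality into the range of the mitosis genes.

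Promoter sequences of the members were read from RefSeq (GRCm38.p6), as windows of 250 bases before to 50 bases after a transcript start. Of the 52 genes 44 matched, with 47 windows. E2F factors switch on replication genes at the start of S phase, and their sites were searched as TTTCCCGC, TTTCGCGC, TTTGCCGC or TTTGGCGC on both strands. At least 1 such match was found in 12 of 47 member windows (25.5%), against 3.88% of 11745 windows of all genes compared and 2.26% of all 32851 windows in the table. These 12 windows belong to 11 genes, 2 of them being windows of Rad51c. Genes on both sides of the 2-fold limit held one. Matches stood in 3 of 10 windows of members at least 2-fold lower in neurons (Bard1, Chek2 and Clspn) and in 9 of 37 windows of the other members. The 10 windows come from 9 genes, since Rad54l has 2 nearly identical windows, both without a match. The replication genes held more, with a match in 14 of 38 windows (36.8%), so a high share is not particular to repair genes. Each match is printed in capitals, 5′ to 3′ on the strand of the gene, with 8 bases on either side, because the matches sit in genes at both ends of the range of ratios.
Clspn (chr4:126556993-126557016, forward strand): gcgtctggGCGCGAAAgctcgaac
Chek2 (chr5:110839823-110839846, forward strand): gattagccGCGGGAAAccaagacg
Bard1 (chr1:71103166-71103189, reverse strand): ccgctcagTTTCCCGCtcaggaag
Brca2 (chr5:150522445-150522468, forward strand): aggccacaGCGGGAAAcagacaca
Topbp1 (chr9:103305190-103305213, forward strand): ctcggttgGCGCGAAAgtcggttc
Mdc1 (chr17:35841474-35841497, forward strand): tcagcctgTTTCCCGCcggtagcc
Msh6 (chr17:87975057-87975080, forward strand): ctcccgacTTTCCCGCcagcggcg
Xrcc6 (chr15:82016315-82016338, forward strand): gggtggaaGCGGGAAAtgcgagtg
Rad51c (chr11:87404480-87404503, reverse strand): tccagcgcTTTCGCGCctcttgct
Rad51c, other window (chr11:87404944-87404967, reverse strand): ccgcgaggGCGGGAAAagcaaggg
Msh3 (chr13:92355186-92355213, reverse strand): ccgtcaagTTTGGCGCGAAAtcgcagcc
Fancg (chr4:43010338-43010361, reverse strand): cttttcagTTTCCCGCggaaccgt

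The match of Clspn began 21 bases after the transcript start and that of Msh6 15 bases after it, while those of Mdc1, Xrcc6 and Fancg began at positions −16, −46 and −52. In Msh3 a pair of matches on opposite strands overlapped, giving a run of 12 capitals that begins at position −202 from the start. No E2F match shared a base with a CCAAT box. The CCAAT box (CCAAT on either strand), the site of NF-Y, was found in 24 of 47 member windows (51.1%), against 38.0% for all genes compared and 37.4% of all windows. The CHR element (TTTGAA on either strand), typical of genes expressed in G2 and mitosis, was found in 1 member window, that of Bard1 (2.13%), against 11.6% and 17.9%. ETS sites (CCGGAAGT on either strand) were found in 4 windows (8.51%), against 7.39% and 3.89%. A match is a description of letters and does not show binding.

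**Figure D5:**
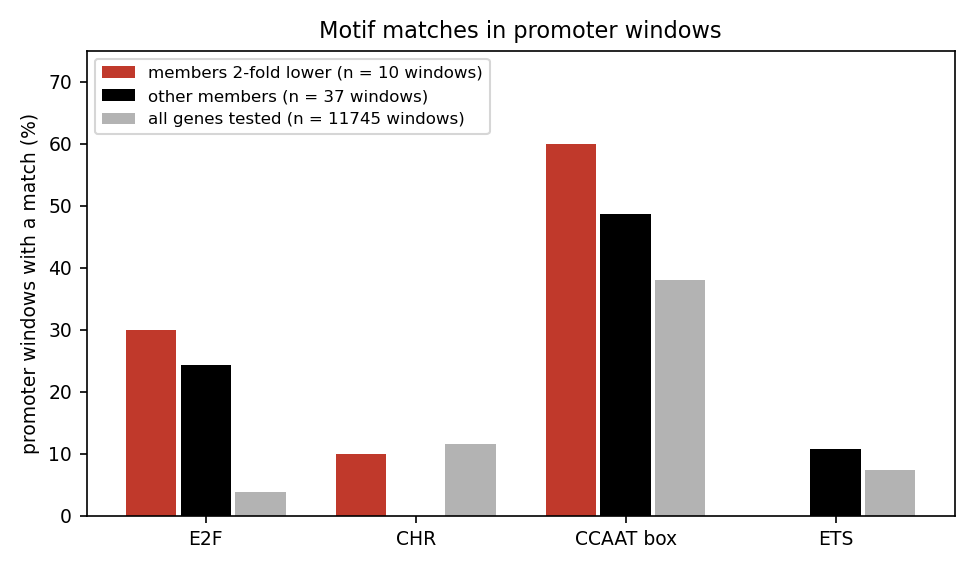
Percent of promoter windows with at least 1 match to each motif on either strand, for members at least 2-fold lower in neurons (10 windows), the other members (37 windows) and all genes compared (11745 windows). The E2F bars of both member sets, at 30.0% and 24.3%, stand above the 3.88% of all genes and below the 36.8% of the replication genes, which are not drawn.

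Whole windows are given for the 3 members with the most negative and the 2 with the smallest absolute log2 ratio among those at 10 CPM or more in a library and with a RefSeq window, in lower case with E2F matches in capitals. The first 3 are 2-fold lower in neurons and the last 2 lie near equality.
Clspn (GRCm38.p6, chr4:126556730-126557029, forward strand): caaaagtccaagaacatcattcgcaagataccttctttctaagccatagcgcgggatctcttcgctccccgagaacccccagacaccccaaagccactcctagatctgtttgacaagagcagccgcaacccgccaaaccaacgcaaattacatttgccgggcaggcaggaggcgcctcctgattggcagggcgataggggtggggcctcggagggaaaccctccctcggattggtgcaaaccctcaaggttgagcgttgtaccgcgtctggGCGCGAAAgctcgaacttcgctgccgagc
Chek1 (GRCm38.p6, chr9:36726609-36726908, reverse strand): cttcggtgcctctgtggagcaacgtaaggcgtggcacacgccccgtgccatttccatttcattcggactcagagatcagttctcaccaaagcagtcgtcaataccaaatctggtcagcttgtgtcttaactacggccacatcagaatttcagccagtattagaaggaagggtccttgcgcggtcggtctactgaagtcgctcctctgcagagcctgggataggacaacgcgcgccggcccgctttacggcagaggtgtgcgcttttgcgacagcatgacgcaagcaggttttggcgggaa
Brca1 (GRCm38.p6, chr11:101551906-101552205, reverse strand): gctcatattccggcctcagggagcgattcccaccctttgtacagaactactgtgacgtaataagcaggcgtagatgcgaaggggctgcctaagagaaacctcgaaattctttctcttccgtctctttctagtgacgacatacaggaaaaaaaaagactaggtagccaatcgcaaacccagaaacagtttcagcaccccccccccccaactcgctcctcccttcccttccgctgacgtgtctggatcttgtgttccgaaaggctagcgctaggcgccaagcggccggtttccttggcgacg
Msh3 (GRCm38.p6, chr13:92354954-92355253, reverse strand): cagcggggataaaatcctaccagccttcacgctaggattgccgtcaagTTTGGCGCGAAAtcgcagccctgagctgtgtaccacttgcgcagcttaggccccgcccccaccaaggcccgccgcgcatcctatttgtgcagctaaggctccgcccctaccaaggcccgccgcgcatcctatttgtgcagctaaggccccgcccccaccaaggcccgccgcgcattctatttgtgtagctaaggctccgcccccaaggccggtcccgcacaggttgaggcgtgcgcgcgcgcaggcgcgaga
Ercc6 (GRCm38.p6, chr14:32513271-32513570, forward strand): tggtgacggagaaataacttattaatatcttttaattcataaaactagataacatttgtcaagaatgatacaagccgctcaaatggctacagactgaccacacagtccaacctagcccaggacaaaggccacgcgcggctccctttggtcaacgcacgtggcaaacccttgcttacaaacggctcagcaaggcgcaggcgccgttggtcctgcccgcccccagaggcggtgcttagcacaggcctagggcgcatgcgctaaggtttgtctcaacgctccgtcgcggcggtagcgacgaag

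Only Clspn and Msh3 of these 5 windows hold a whole match, 1 a member 2-fold lower in neurons and 1 near equality. The Chek1 window ends in 7 of the 8 letters of a match on the reverse strand, and the next base lies outside it. Clspn and Brca1 hold a CCAAT box, and Chek1, Msh3 and Ercc6 hold none.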

How the data were processed

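RNA sequencing of 1 neuron library and 1 NPC library was analysed. Per the file headers, each table has 1 column from the same lane. The deposited values are a signal: whole multiples of 1.13 in neurons and 0.953 in NPCs, which is how counts look after the authors multiplied each library by 1 factor. Division by these steps gave whole reads (within 0.05) for 99.7% and 99.9% of values. Values under 0.01 were set to 0. CASAVA 1.9, TopHat 1.2.0, SAMtools 0.1.18, edgeR and the mm9 build are listed, without roles, per the submitters' processing notes. Whether reads were counted by strand, and with which gene models, is not given in the sources used here.

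The deposited scaling was kept. The comparison used genes reaching 1 CPM in either library, with 1 CPM added and a 2-fold limit. No count test was fitted to the recovered reads, since 1 library per group leaves no estimate of spread. Folds carry exact 95% Clopper-Pearson intervals. The members, role groups, gene lists and motifs were chosen with earlier results of these data known. Every member is named. Folds and intervals are given for the 4 members farthest from equality in each role group, for Lig4, and for others with a stated difference. Among listed genes outside the members, those past 2-fold and the 3 farthest from equality in each list are named, except some that are not reported here. Of all listed genes 8 were found through RefSeq synonyms and 3 were not matched. Exon lengths and overlaps come from GENCODE (GRCm38) and serve only for lengths and neighbours, without coordinates of the mm9 tables. Python 3.11.15, scipy 1.17.1 and edgeR 4.0.16 (for TMM) were used, and the calculations were tested on simulated data. Other scalings, added values, filters and limits were tried as alternatives.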

Additional observations from a re-analysis of the deposited data

How the results depend on the processing

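The count of 12 members at least 2-fold lower in neurons was also 12 under the 3 other scalings (total reads, TMM, upper quartile), with 0.1 CPM added and without a filter, and 11 with a 10 CPM filter. It was 7 with 5 CPM added, 19 with a 1.5-fold limit and 15 with the counting interval beyond 1.5-fold. The share of all genes moved too, from 6.73% as reported to 3.14% with 5 CPM added, 13.1% with the 1.5-fold limit and 10.2% by the interval. It was 8.74% with 0.1 CPM added, 7.39% by total reads, 7.06% by upper quartile and 6.77% by TMM. Without a filter the share was 5.3%, and with the 10 CPM filter 5.51%. No setting gave a member at least 2-fold higher in neurons. The member median of −0.37 ran from −0.33 to −0.43. Chosen after seeing the data, leaving out the 5 members with over 10% of exon length overlapped kept 12 counted members and gave a median of −0.38, while the checkpoint median, −0.55 as reported, was −0.71 without Trp53bp1 and −0.38 with the 10 CPM filter, which drops Chek2. With 5 CPM added, 2 recombination members were counted instead of 5. With 5 CPM added, 11 members' log2 ratios moved by more than the half-width of their counting interval, and 4 did under scaling by total reads and 1 under upper quartiles. Signs turned for Msh3 (total reads and upper quartile) and Trp53bp1 (total reads). On the strand of the gene alone, E2F matches stood in 12.8% of member windows, against 2.05% of all genes compared. Each member had at least 67 reads in each library. With 1 library per population, variation between sorts is not measured. No paired analysis was possible because each population has 1 library.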

Other observations

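Members of some complexes outside the 52 genes differed among themselves, and these examples were chosen after their values were seen. In the checkpoint clamp, Hus1 was at 11.5 CPM in neurons and 29.5 CPM in NPCs, while its partner genes Rad9 and Rad1 were at 27.3 and 32.3 CPM and at 14.4 and 13.8 CPM in neurons and NPCs. Of the partners of Blm, Rmi2 was 5.10-fold lower (3.35 to 8.05) and Rmi1 was at 43.5 CPM in neurons and 44.2 CPM in NPCs. In base excision repair the polymerase gene Polb was at 43.6 CPM in neurons and 33.9 CPM in NPCs, 1.29-fold higher (1.17 to 1.41), and Aptx, which cleans failed ligation ends, at 72.1 CPM in neurons and 60.1 CPM in NPCs, 1.201-fold higher (1.12 to 1.29). Mgmt, the gene of the methyltransferase that reverses guanine alkylation, had 0 reads in the neuron library and 14 in the NPC library. It did not pass the 1 CPM limit.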
